A study of Homo sapiens with 12 samples.

Results

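The genes described here build autophagosomes or bind the cargo that autophagosomes take up. The set holds every gene of the platform's gene table whose symbol begins with ATG and a digit, GABARAP, MAP1LC3 or WIPI and a digit, together with ULK1, ULK2, BECN1, SQSTM1, OPTN, NBR1, CALCOCO2, TAX1BP1, UVRAG, RB1CC1, PIK3C3, PIK3R4 and AMBRA1. It came to 40 genes of the 18132 that have a probe set with 1 gene symbol. Each gene was represented by its brightest such probe set over the 12 arrays. For 38 of the 40 the mean signal reached the level required for testing, a log2 value of 4.48. The other two were ULK2, with values from 3.41 to 4.09, and GABARAPL3, with values from 2.82 to 3.41 over the 12 arrays, and neither was tested.

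Macroautophagy encloses cytoplasm in a double membrane, the autophagosome, and delivers it to lysosomes. The ULK kinase complex starts the process, a class III phosphatidylinositol 3-kinase built around BECN1 marks the growing membrane with the lipid PI3P, and WIPI proteins read that mark. Lipid-transfer and scramblase proteins (ATG2, ATG9) feed the membrane, and a ubiquitin-like conjugation system couples proteins of the ATG8 family (LC3 and GABARAP) to its lipids. Cargo receptors such as SQSTM1 bind ubiquitinated cargo on one side and ATG8 proteins on the other. In macrophages the same machinery clears protein aggregates, damaged organelles and bacteria that reach the cytosol.

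Messenger RNA of THP-1 cells, a human monocytic leukaemia line, was measured on 12 PrimeView arrays in 4 groups of 3. All groups are described as differentiated into macrophage-like cells with the phorbol ester PMA, given in the growth protocol at 100 ng/ml for 48 hours. The temperature experiment then compared cells kept at 37 °C with cells kept at 40 °C, the temperature of a fever. The other experiment compared cells labelled siRNA and siThermomir, called the inhibitor group here, with cells labelled WT and control. The treatment protocol has cells of that experiment differentiated at 40 °C, then nucleofected with a GFP vector and a hairpin inhibitor of ThermoMIR-1, of miR-143, of miR-142 or of no human microRNA. Cells expressing GFP were collected by sorting after 24 hours. The labels leave unstated which of these targets the arrays represent, whether any inhibitor was given to the control cells, and how long the cells of the temperature experiment spent at 40 °C. Both groups of the inhibitor experiment thus share differentiation at 40 °C, and they differ from the temperature experiment in handling.

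Array medians were between 5.72 and 5.87 on the log2 scale, and the correlation between arrays within a group was 0.9939 to 0.9984 over all probe sets. Of 8 macrophage markers, 7 reached the level required for testing. MRC1 did not, at group means of 2.94 to 3.30. The means of all 7 were higher at 40 °C than at 37 °C, by 0.033 (SPI1) to 0.97 (CD163). With the inhibitor 6 were lower and 1 higher, from −1.46 (FCGR1A) to 0.28 (CSF1R). Of 11 markers of erythroid, lymphoid, fibroblast and epithelial cells with a probe set, 6 reached the level required for testing. NCAM1 was the brightest of these at group means of 9.31 at 37 °C, 9.46 at 40 °C, 9.13 in control and 10.11 in inhibitor arrays, and the other 10 had group means of at most 6.36. The poly-A spikes, bacterial RNAs added before labelling, averaged 7.07 ± 0.35 on control and 5.83 ± 0.27 on inhibitor arrays (SD, n = 3 each) and did not overlap, against 7.68 ± 0.040 at 37 °C and 7.77 ± 0.035 at 40 °C. Whether a change in cell makeup had a part in the results was not tested, and in bulk RNA fewer cells with a transcript cannot be told apart from less of it per cell. The signal at the 3′ end of GAPDH exceeded that at its 5′ end by 0.38 ± 0.020 at 37 °C, 0.44 ± 0.10 at 40 °C, 1.04 ± 0.040 on control and 0.72 ± 0.085 on inhibitor arrays. For ACTB the same excess was 1.55 ± 0.040, 1.58 ± 0.22, 2.44 ± 0.085 and 2.70 ± 0.16, so the inhibitor arrays were lower than controls on GAPDH and higher on ACTB. Replicates are numbered in the titles but not described as independent cultures, and the p-values thus cover only a spread between arrays that may be technical. Precision is limited by the number of arrays.

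At 40 °C, 7 of the 38 members rose and 10 fell (limma, Benjamini-Hochberg adjusted p under 0.05 over all 13909 genes tested, termed a call below). The cargo receptor transcript SQSTM1 and the PI3P reader WIPI1 were among those that rose, and transcripts of the lipid kinase subunits BECN1, ATG14 and PIK3C3 and of the lipid-transfer protein ATG2B among those that fell. Across all genes tested, 21.6% were called higher and 17.7% lower (39.3% in either direction), against 18.4% and 26.3% of the members. The median log2 difference of the members was −0.030, beside 0.013 for all genes, and no member differed by as much as 2-fold. The 37 °C and 40 °C values did not overlap for 22 of the 38 members, where the same held for 49.5% of all genes.

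With the inhibitor, 10 of the 38 members rose and 13 fell. Transcripts of 5 of the 6 tested ATG8 proteins, 4 of the 5 cargo receptors and WIPI1 were lower, while SQSTM1, ATG16L1, ATG12, ATG2A, ATG14, ATG2B, ATG4B and BECN1 were higher. Across all genes, 25.6% were called higher and 19.6% lower (45.2% in either direction), against 26.3% and 34.2% of the members. The medians were −0.053 for the members and 0.090 for all genes, and the differences of 2 members, WIPI1 and OPTN, reached 2-fold. The groups did not overlap for 27 of the 38, and for 54.1% of all genes. With a covariate for the poly-A spike signal, 1 member, OPTN (−1.08, adjusted p = 0.0473), was still called in this comparison, and 3 rose and 3 fell at 40 °C. Of all genes, 1.96% were called with the inhibitor and 19.2% at 40 °C under that covariate. With the inhibitor the median SE of the members was then 0.19, against 0.066 without the covariate, and 22 of the 23 called members kept their direction, ATG4C (0.014) being the exception.

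**Figure D1:**
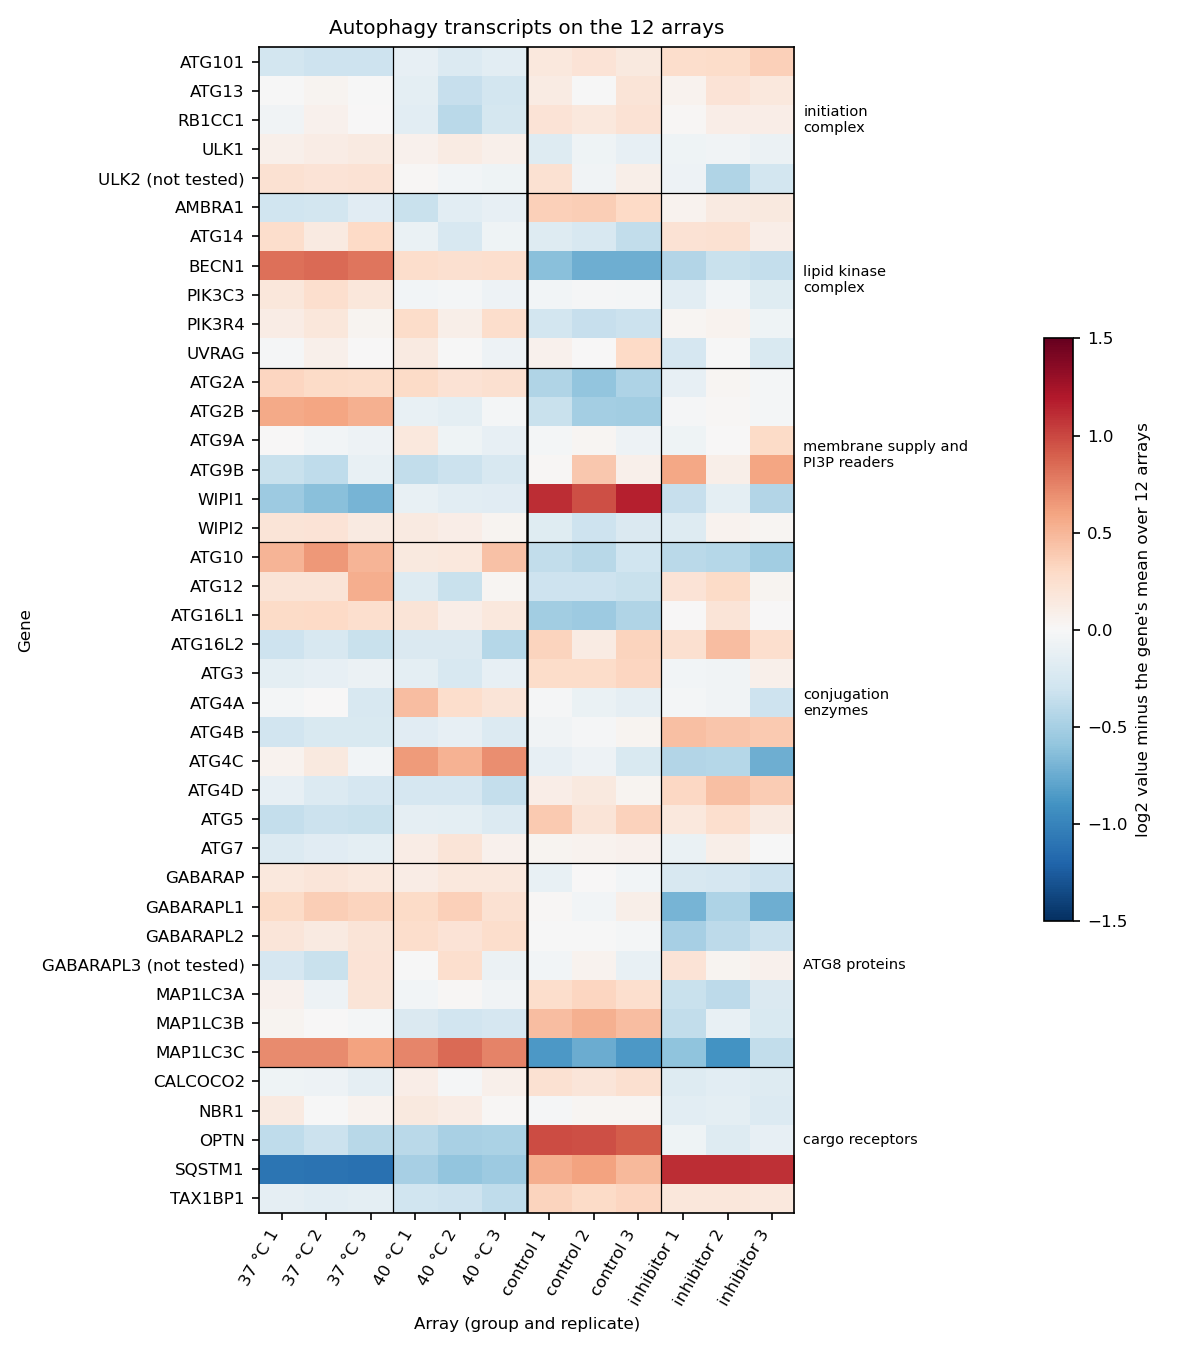
Heat map of the 40 genes (rows, grouped by role) on the 12 arrays (columns, 3 per group). Colour shows the log2 value of each gene's brightest probe set minus its mean over the 12 arrays. On these probe sets SQSTM1, WIPI1, MAP1LC3C and BECN1 had the widest spans of group means, 1.53 to 2.21.

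The initiation complex joins the kinases ULK1 or ULK2 to the scaffolds RB1CC1 and ATG13 and to ATG101. RB1CC1 (Entrez gene 9821) fell at 40 °C, with 10.34, 10.45 and 10.40 at 37 °C and 10.23, 9.99 and 10.13 at 40 °C, a difference of −0.28 (SE 0.068, adjusted p = 0.0122). All 3 values at 40 °C lay below all 3 at 37 °C, although the other probe set of the gene differed by −0.017 and was not called. ATG13, which binds the ULK kinases, also fell, from 8.54, 8.58 and 8.54 to 8.40, 8.19 and 8.26, a difference of −0.27 (SE 0.060, adjusted p = 0.00854), again without overlap. Its faintest probe set was also called lower (−0.44), while another differed by −0.047 and was not called. ATG101, the partner of ATG13, was higher at 40 °C by 0.13 (SE 0.044, adjusted p = 0.0435), with 8.14, 8.11 and 8.11 against 8.29, 8.21 and 8.26. That call was lost when any array other than replicate 2 at 40 °C was left out. ULK1, the kinase that opens the pathway, read 6.90, 6.93 and 6.95 at 37 °C and 6.88, 6.94 and 6.89 at 40 °C, and its groups overlapped (difference −0.023, SE 0.043). In the inhibitor experiment none of the 4 tested members of this complex passed the test on its brightest probe set, where 45.2% of all genes did. The faintest ATG13 probe set was called lower in that experiment (−0.42). There ULK1 read 6.63, 6.75 and 6.70 in control and 6.76, 6.77 and 6.73 in inhibitor arrays, a difference of 0.060 (SE 0.058), and the differences of RB1CC1, ATG13 and ATG101 were −0.12, 0.033 and 0.13.

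The lipid kinase complex holds the catalytic subunit PIK3C3, its scaffold PIK3R4 and BECN1, with ATG14 or UVRAG as alternative partners and AMBRA1 as a regulator of BECN1. BECN1 (Entrez gene 8678) fell at 40 °C on every probe set. Its values were 11.18, 11.21 and 11.16 at 37 °C and 10.62, 10.60 and 10.61 at 40 °C, 1.49-fold lower, a log2 difference of −0.57 (SE 0.042, adjusted p = 4.24e-05). All 6 of its probe sets were called. In the inhibitor experiment the sign was opposite, with 9.73, 9.62 and 9.62 in control and 9.92, 10.02 and 10.00 in inhibitor arrays, a rise of 0.32 (SE 0.062, adjusted p = 0.00446). That rise rests on the brightest probe set, since none of the other 5 was called and they differed by −0.17 to 0.22, and it was not called with the mean of the probe sets. ATG14, which directs the kinase to forming autophagosomes, followed the same pattern. It read 8.40, 8.27 and 8.43 at 37 °C and 8.03, 7.89 and 8.07 at 40 °C (difference −0.37, SE 0.066, adjusted p = 0.00288). In the other experiment it read 7.94, 7.89 and 7.76 in control and 8.35, 8.36 and 8.23 in inhibitor arrays (difference 0.45, SE 0.072, adjusted p = 0.00188). Neither pair of groups overlapped, and the fall at 40 °C was lost with the mean of its probe sets. PIK3C3 fell at 40 °C from 9.54, 9.63 and 9.55 to 9.34, 9.35 and 9.30, a difference of −0.24 (SE 0.046, adjusted p = 0.00393), and differed by −0.10 (SE 0.060) with the inhibitor, which was not called. PIK3R4 was called with the inhibitor alone, at 7.74, 7.67 and 7.70 in control and 8.05, 8.07 and 7.95 in inhibitor arrays, a rise of 0.32 (SE 0.060, adjusted p = 0.00397). AMBRA1 fell with the inhibitor from 8.02, 8.03 and 7.96 to 7.71, 7.79 and 7.81, a difference of −0.23 (SE 0.058, adjusted p = 0.0142), but not with inhibitor replicate 1 left out or with the mean of its probe sets. UVRAG, the partner of the kinase in endosome traffic, was not called on its brightest probe set in either comparison (differences of −0.0033, SE 0.063, and −0.28, SE 0.10).

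The annotated starts of ATG14 and ATG3, an enzyme of the conjugation system, are shown because they are the members with the E-box of the CLEAR element, the motif that TFEB binds at lysosomal and autophagy genes. The stretch searched runs from 250 bases before the start to 50 after it, in the RefSeq promoter table. Of the 40 members 35 had a window there, 44 windows in all, and TCACGTG on either strand was found in 2 of the 44, or 4.55%, against 3.71% of the 35116 windows of all genes. Capitals mark the motif. In ATG14 it stands as the reverse complement, CACGTGA, beginning 21 bases before the start, and in ATG3 it occurs 3 times, 2 of them overlapping.
ATG14, GRCh38.p14, chr14:55411781-55412080, minus strand: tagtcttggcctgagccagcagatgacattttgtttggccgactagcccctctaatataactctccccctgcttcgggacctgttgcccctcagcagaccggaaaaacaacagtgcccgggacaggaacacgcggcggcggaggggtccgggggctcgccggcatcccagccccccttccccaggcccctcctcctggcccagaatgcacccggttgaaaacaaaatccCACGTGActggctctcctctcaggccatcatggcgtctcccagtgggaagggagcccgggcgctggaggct
ATG3, GRCh38.p14, chr3:112561913-112562212, minus strand: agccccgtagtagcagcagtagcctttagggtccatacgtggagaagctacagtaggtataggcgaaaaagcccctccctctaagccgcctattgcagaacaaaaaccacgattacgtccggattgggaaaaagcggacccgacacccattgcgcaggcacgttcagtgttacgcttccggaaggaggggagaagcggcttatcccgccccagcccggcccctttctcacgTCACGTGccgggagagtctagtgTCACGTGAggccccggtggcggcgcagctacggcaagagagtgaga

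Membrane is supplied by the lipid-transfer proteins ATG2A and ATG2B and the scramblases ATG9A and ATG9B, and WIPI1 and WIPI2 recruit further factors to PI3P. ATG2B (Entrez gene 55102) had the largest fall of any member at 40 °C, from 8.53, 8.55 and 8.49 to 7.85, 7.81 and 7.93, 1.58-fold lower (log2 difference −0.66, SE 0.049, adjusted p = 4.69e-05). Its probe sets did not move alike, however. The 2 fainter ones that were tested were called higher at 40 °C, by 0.21 and 0.19, and the mean over its probe sets did not pass the test. With the inhibitor ATG2B rose from 7.63, 7.45 and 7.44 to 7.94, 7.98 and 7.93, by 0.44 (SE 0.070, adjusted p = 0.00175). There the 2 fainter tested probe sets differed by 0.34 and 0.17 and were not called. ATG2A, its paralogue, read 8.53, 8.50 and 8.48 at 37 °C and 8.49, 8.42 and 8.45 at 40 °C, which was not called (−0.050, SE 0.044), and rose with the inhibitor from 7.76, 7.61 and 7.74 to 8.09, 8.24 and 8.18, by 0.47 (SE 0.070, adjusted p = 0.0014). A further ATG2A probe set had the same group means. Its 2 faintest ones differed by 0.23 and 0.24 with the inhibitor and were not called.

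WIPI1 (Entrez gene 55062) moved the other way in both experiments. At 37 °C its values were 6.95, 6.87 and 6.80, and at 40 °C 7.39, 7.34 and 7.33, 1.39-fold higher (log2 difference 0.48, SE 0.052, adjusted p = 0.00026). Control arrays read 8.61, 8.47 and 8.67 and inhibitor arrays 7.16, 7.35 and 7.06, 2.63-fold lower, the largest difference of any member in either comparison (−1.39, SE 0.092, adjusted p = 4.17e-05). Both of its probe sets were called in each comparison and in the same direction. WIPI2, the form that recruits ATG16L1, was not called on its brightest probe set, with differences of −0.090 (SE 0.048) and 0.20 (SE 0.083), although a fainter one was called higher in each comparison, by 0.26 and 0.51. ATG9A differed by 0.027 and 0.10 and ATG9B by −0.037 and 0.25, and neither was called.

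Conjugation enzymes process ATG8 proteins (the ATG4 proteases), activate them (ATG7), pass them on (ATG3) and attach them to lipid with the help of the ATG12-ATG5-ATG16L1 complex, which itself needs ATG10. Of the 11 members, all tested, 4 rose and 2 fell at 40 °C, and 4 rose and 2 fell with the inhibitor. The shares of all genes were 21.6% higher and 17.7% lower at 40 °C, and 25.6% and 19.6% with the inhibitor. ATG4C rose at 40 °C from 7.10, 7.19 and 7.01 to 7.69, 7.57 and 7.74, 1.48-fold (0.57, SE 0.065, adjusted p = 0.000341), and fell with the inhibitor from 6.92, 6.97 and 6.82 to 6.61, 6.62 and 6.32, a difference of −0.39 (SE 0.095, adjusted p = 0.0129). Its other probe set was called lower with the inhibitor but differed by 0.060 at 40 °C, which was not called. ATG4A rose at 40 °C from 7.51, 7.55 and 7.31 to 8.01, 7.81 and 7.74, by 0.40 (SE 0.088, adjusted p = 0.0083), and differed by −0.050 (SE 0.088) with the inhibitor. The other ATG4A probe set differed by 0.14 at 40 °C and was not called. The other two proteases were called on their brightest probe set with the inhibitor alone, although 2 fainter ATG4B probe sets were called higher at 40 °C, by 0.31 and 0.34. ATG4B, which processes most ATG8 proteins, rose from 8.95, 8.98 and 9.05 to 9.46, 9.42 and 9.40, by 0.43 (SE 0.057, adjusted p = 0.000805), and ATG4D from 6.71, 6.75 and 6.65 to 6.92, 7.06 and 6.99, by 0.29 (SE 0.063, adjusted p = 0.00813). Neither pair of groups overlapped.

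ATG7, the activating enzyme shared by both conjugation branches, rose at 40 °C from 8.07, 8.11 and 8.13 to 8.38, 8.47 and 8.34, by 0.29 (SE 0.050, adjusted p = 0.00233), and all 3 of its probe sets were called higher. ATG5, the acceptor of ATG12, read 9.29, 9.33 and 9.32 at 37 °C and 9.52, 9.51 and 9.45 at 40 °C, a rise of 0.18 (SE 0.044, adjusted p = 0.0126) that was lost without replicate 1 at 37 °C. With the inhibitor it read 10.05, 9.85 and 10.00 in control and 9.81, 9.90 and 9.79 in inhibitor arrays, and the groups overlapped (−0.13, SE 0.072). ATG12 itself fell at 40 °C from 9.12, 9.12 and 9.47 to 8.73, 8.59 and 8.96, a difference of −0.48 (SE 0.12, adjusted p = 0.0147), a call that was lost without replicate 2 at 40 °C. Its other probe set differed by −0.15 there and was not called. In the inhibitor experiment it rose from 8.62, 8.62 and 8.59 to 9.13, 9.21 and 8.97, by 0.49 (SE 0.074, adjusted p = 0.00137), on both of its probe sets. ATG10, which joins ATG12 to ATG5, fell at 40 °C from 7.07, 7.21 and 7.07 to 6.70, 6.71 and 7.0, a difference of −0.31 (SE 0.087, adjusted p = 0.0226). The ATG10 call was lost without replicate 2 at 37 °C and without replicate 1 or 2 at 40 °C.

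ATG16L1, which positions the complex on the membrane, had the largest rise of any member with the inhibitor. Control arrays read 7.39, 7.37 and 7.46 and inhibitor arrays 7.92, 8.11 and 7.92, 1.49-fold higher (0.58, SE 0.072, adjusted p = 0.000634). At 37 °C it read 8.20, 8.21 and 8.16 and at 40 °C 8.11, 8.01 and 8.07. Those groups did not overlap, but the difference of −0.13 (SE 0.046, adjusted p = 0.0633) did not pass the test. The fainter probe set of ATG16L1 differed by 0.24 with the inhibitor and was not called. ATG3, the E2-like enzyme of the ATG8 branch, fell with the inhibitor from 11.70, 11.69 and 11.74 to 11.38, 11.37 and 11.50, a difference of −0.29 (SE 0.061, adjusted p = 0.00627), on all 5 of its tested probe sets. ATG16L2, a relative of ATG16L1, differed by 0.0067 and 0.053 and was called in neither comparison.

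ATG8 proteins are the tags that coat the autophagosome and anchor cargo receptors, and they form an LC3 and a GABARAP branch. Of the 6 tested, 5 fell with the inhibitor and none rose, where 19.6% of all genes were called lower and 25.6% higher. Their median log2 difference was −0.49, beside 0.090 for all genes. In the LC3 branch, MAP1LC3B (Entrez gene 81631) read 11.03, 11.11 and 11.03 in control and 10.20, 10.46 and 10.34 in inhibitor arrays, 1.65-fold lower (−0.72, SE 0.078, adjusted p = 0.000321). All 4 of its probe sets were called lower, the other three by 0.92 to 1.15. A near-identical copy, MAP1LC3B2, has no probe set with 1 gene symbol, and the signal of MAP1LC3B may include it. MAP1LC3A fell from 6.89, 6.94 and 6.87 to 6.29, 6.23 and 6.41, a difference of −0.59 (SE 0.066, adjusted p = 0.000386). MAP1LC3C, the least typical LC3 form, had overlapping groups and no call (difference 0.20, SE 0.13).

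In the GABARAP branch, GABARAPL1 (Entrez gene 23710) fell from 8.42, 8.35 and 8.48 to 7.70, 7.93 and 7.66, 1.57-fold lower (−0.65, SE 0.085, adjusted p = 0.000755). Of its 3 tested probe sets 2 were called lower, and the other differed by −0.33 and was not called. GABARAPL3, whose sequence is close to GABARAPL1, stayed under the level required for testing on all 12 arrays. GABARAPL2 fell from 11.53, 11.54 and 11.51 to 11.04, 11.15 and 11.22, a difference of −0.39 (SE 0.065, adjusted p = 0.00223), on all 4 probe sets. GABARAP fell too, without overlap, a difference of −0.22 (SE 0.059, adjusted p = 0.0184). Of its 4 probe sets 2 were called lower, and 2 differed by −0.14 and −0.13 and were not called. The GABARAP call was lost without replicate 2 or 3 of the controls and without replicate 3 of the inhibitor arrays.

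At 40 °C most ATG8 transcripts were not called either way. MAP1LC3B was the one that fell at 40 °C, from 10.61, 10.58 and 10.54 to 10.36, 10.28 and 10.32, a difference of −0.26 (SE 0.046, adjusted p = 0.00286). None of its other 3 probe sets was called there, and 2 of them had positive differences, of 0.13 and 0.067. The call was lost with the mean of the 4. The remaining 5 differed by −0.087 (MAP1LC3A) to 0.10 (MAP1LC3C). GABARAPL1 read 8.68, 8.76 and 8.73 at 37 °C and 8.68, 8.75 and 8.62 at 40 °C, overlapping, with a difference of −0.040 (SE 0.051). Tested directly, the inhibitor difference was lower than the temperature difference for the same 5 of 6 ATG8 transcripts that fell with the inhibitor, by 0.61 for GABARAPL1 (adjusted p = 0.000377) down to 0.20 for GABARAP (adjusted p = 0.0237). Of all genes, 21.1% were called lower on that test.

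Cargo receptors divided. SQSTM1 (Entrez gene 8878), the ubiquitin-binding receptor p62, rose in both experiments, and its 4 groups did not overlap. It read 11.04, 11.02 and 11.01 at 37 °C and 11.63, 11.54 and 11.58 at 40 °C, 1.47-fold higher (0.56, SE 0.045, adjusted p = 6.27e-05). Control arrays read 12.68, 12.73 and 12.62 and inhibitor arrays 13.24, 13.24 and 13.23, also 1.47-fold higher (0.56, SE 0.057, adjusted p = 0.000243). All 5 of its probe sets were called higher in both comparisons, by 0.51 to 0.78 at 40 °C and by 0.53 to 0.96 with the inhibitor. On the brightest probe set the 2 differences were 0.00 apart (SE 0.064). On another the inhibitor difference exceeded the temperature difference by 0.38, which was called, and the other three were not called on this test.

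The other 4 receptors fell with the inhibitor, where 19.6% of all genes were called lower. OPTN (Entrez gene 10133), optineurin, a receptor for ubiquitinated bacteria and mitochondria, read 8.88, 8.87 and 8.81 in control and 7.83, 7.71 and 7.78 in inhibitor arrays, 2.11-fold lower (−1.08, SE 0.060, adjusted p = 2.24e-05), and all 3 of its probe sets were called. At 37 °C it read 7.52, 7.58 and 7.48 and at 40 °C 7.50, 7.41 and 7.42. Those groups overlapped and the difference of −0.083 (SE 0.049) was not called. CALCOCO2, the receptor NDP52 for invading bacteria, fell with the inhibitor from 10.35, 10.30 and 10.36 to 9.92, 9.96 and 9.93, a difference of −0.40 (SE 0.054, adjusted p = 0.000879). Its difference at 40 °C had the opposite sign, 0.14 (SE 0.050, adjusted p = 0.0545), and did not pass the test, while 2 fainter probe sets were called higher there, by 0.40 and 0.30. NBR1, a receptor that acts with SQSTM1, was lower, a difference of −0.18 (SE 0.054, adjusted p = 0.0283). TAX1BP1, related to CALCOCO2, read 11.40, 11.35 and 11.39 in control and 11.23, 11.23 and 11.22 in inhibitor arrays, a difference of −0.15 (SE 0.053, adjusted p = 0.0483). Neither pair overlapped, but the NBR1 call was lost on leaving out any array except replicate 2 of the inhibitor group, and the TAX1BP1 call on leaving out any of the 6 arrays. At 40 °C TAX1BP1 fell from 10.93, 10.91 and 10.92 to 10.77, 10.75 and 10.68, a difference of −0.19 (SE 0.045, adjusted p = 0.0117), on all 5 probe sets, while NBR1 differed by 0.030 (SE 0.057).

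Of the members called with the inhibitor, TAX1BP1 and GABARAPL2 are shown with the sequence at an annotated start, because those windows hold a pair of facing heat shock units, GAANNTTC, the form that the heat shock factor HSF1 recognises in longer arrays. The motif reads the same on both strands and was found in 4 of the 44 member windows (9.09%) and in 6.77% of all 35116 windows. The other two were overlapping windows of ATG9B. In TAX1BP1 the motif, in capitals, begins 91 bases before the start, and in GABARAPL2 219 bases before it. GABARAPL2 was not called at 40 °C (0.080, SE 0.045), and TAX1BP1 fell there, as given above.
TAX1BP1, GRCh38.p14, chr7:27739123-27739422, plus strand: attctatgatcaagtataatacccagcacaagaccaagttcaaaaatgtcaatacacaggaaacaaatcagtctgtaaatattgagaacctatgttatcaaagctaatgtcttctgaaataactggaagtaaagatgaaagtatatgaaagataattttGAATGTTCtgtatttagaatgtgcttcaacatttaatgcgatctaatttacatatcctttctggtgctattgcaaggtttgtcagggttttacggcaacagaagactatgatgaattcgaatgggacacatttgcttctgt
GABARAPL2, GRCh38.p14, chr16:75566129-75566428, plus strand: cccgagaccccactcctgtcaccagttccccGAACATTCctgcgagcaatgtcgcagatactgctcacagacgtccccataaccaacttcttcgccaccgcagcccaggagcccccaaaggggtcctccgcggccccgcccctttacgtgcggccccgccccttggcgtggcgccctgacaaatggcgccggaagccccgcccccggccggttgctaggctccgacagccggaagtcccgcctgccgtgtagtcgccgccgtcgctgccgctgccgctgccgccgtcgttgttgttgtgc

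**Figure D2:**
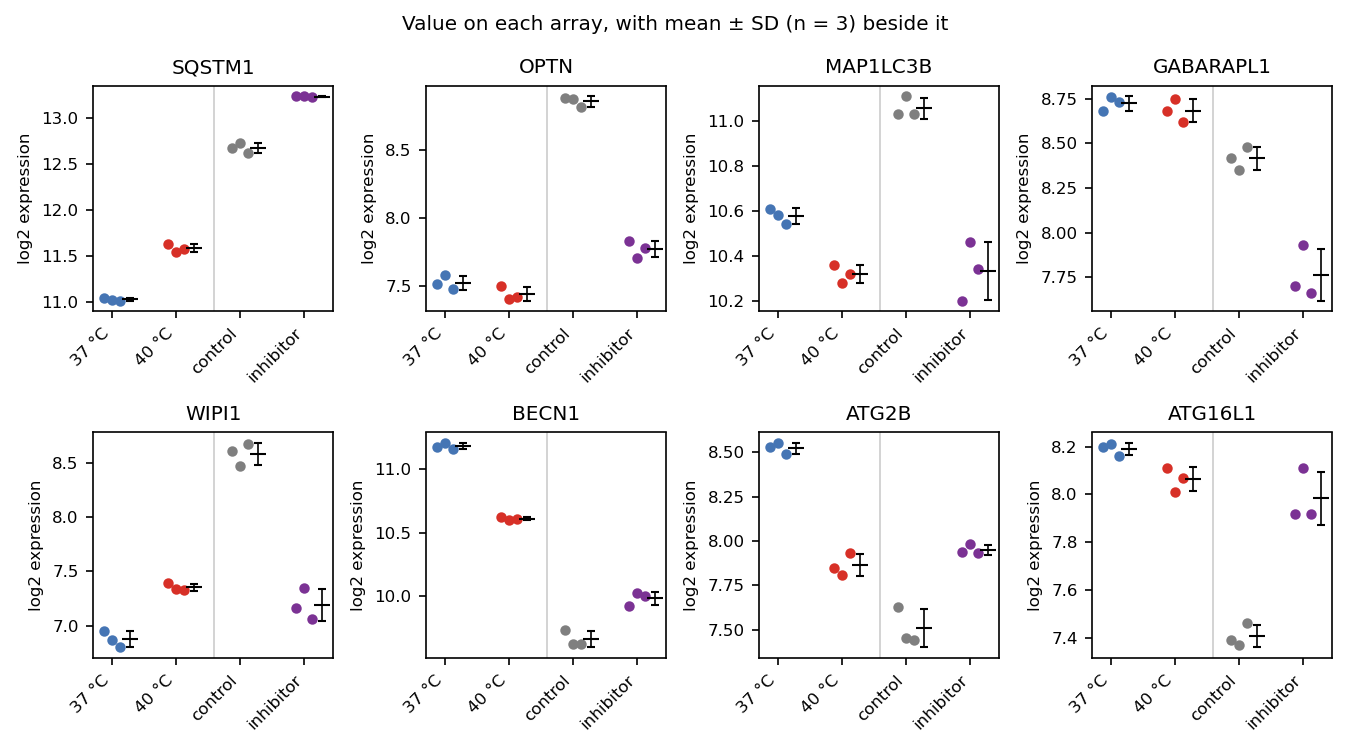
Log2 expression (vertical axes) of 8 members on each array, in 4 groups of 3 (horizontal axes), with the mean ± SD beside the points. SQSTM1 stepped up from 11.01 at its lowest at 37 °C to 13.24 at its highest on inhibitor arrays, and OPTN, MAP1LC3B and WIPI1 had their highest values on control arrays.

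Both comparisons called 9 members, 23.7% of those tested, where 22.7% of all genes were called in both. The comparisons share no array. Of these 9, 6 went in opposite directions, or 66.7%, against 39.5% of the 3163 genes called in both. That share depends on the choice of probe set. With the mean of the probe sets ATG14, ATG2B and MAP1LC3B lost the call at 40 °C, and BECN1 lost the call with the inhibitor. Of the 6, WIPI1 alone was called on every probe set in both comparisons. BECN1, ATG14, ATG12 and ATG2B were lower at 40 °C and higher with the inhibitor, a pattern of 4.04% of all genes, and WIPI1 and ATG4C were higher at 40 °C and lower with the inhibitor, a pattern of 4.95%. SQSTM1, MAP1LC3B and TAX1BP1 went the same way in both. The difference between the 2 comparisons was itself tested over all 12 arrays, and 25 of the 38 members passed, 10 upward and 15 downward, against 23.1% and 21.1% of all genes, or 44.2% in either direction. ATG2B (difference 1.10, SE 0.082, adjusted p = 8.23e-07), ATG12 (0.97, SE 0.15, adjusted p = 0.000307), BECN1 (0.90, SE 0.068, adjusted p = 9.56e-07) and ATG14 (0.82, SE 0.099, adjusted p = 3.78e-05) had the largest upward values on the brightest probe sets. The other 2 tested probe sets of ATG2B differed between the comparisons by 0.13 and −0.023 and were not called. Downward the largest were WIPI1 (−1.87, SE 0.11, adjusted p = 1.54e-07), OPTN (−0.997, SE 0.072, adjusted p = 6.57e-07) and ATG4C (−0.95, SE 0.12, adjusted p = 5.5e-05). TAX1BP1 (0.033, SE 0.060) and ULK1 (0.083, SE 0.064) did not pass it. With the spike level as a covariate, 9 members passed, and 14.0% of all genes.

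**Figure D3:**
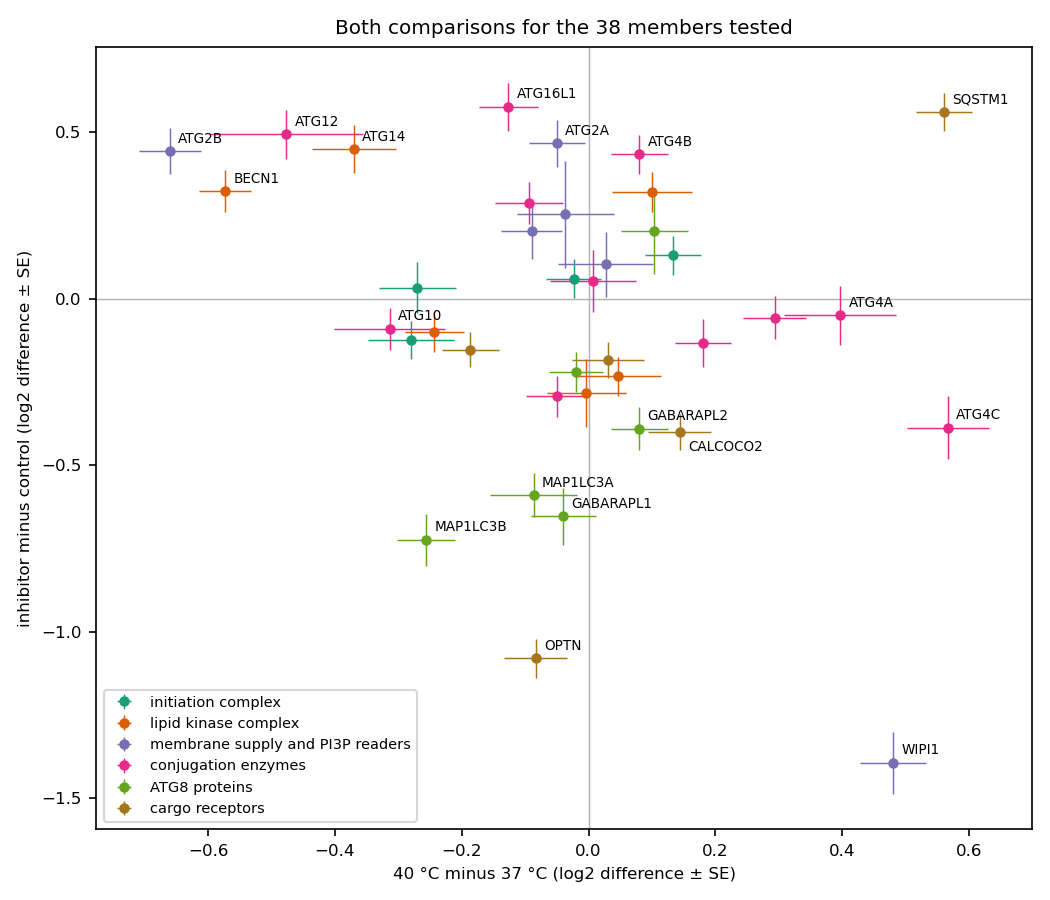
Scatter of the 38 tested members, with the 40 °C minus 37 °C log2 difference on the horizontal axis and the inhibitor minus control log2 difference on the vertical axis, bars giving the SE and colours the role. SQSTM1 lies alone at 0.56 on both axes, BECN1, ATG2B, ATG12 and ATG14 lie in the upper left, and WIPI1 and ATG4C in the lower right.

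Probe sets of 1 gene can read different ends or variants of its transcripts. The 40 members have 129 probe sets with 1 symbol, and 34 members have more than 1. At 40 °C, 14 of the 17 called members had several tested probe sets. For 5 of these (ATG7, BECN1, SQSTM1, TAX1BP1 and WIPI1) each was called in the gene's direction when all probe sets were fitted, and for ATG2B another was called the opposite way. With the inhibitor, 21 of the 23 had several. For 8 of these (ATG12, ATG3, ATG4C, GABARAPL2, MAP1LC3B, OPTN, SQSTM1 and WIPI1) all were called alike, and none had an opposite call. In each comparison 4 members that were not called on their brightest probe set had a fainter one that was. SQSTM1 and WIPI1 were thus called alike on every probe set in both comparisons.

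**Figure D4:**
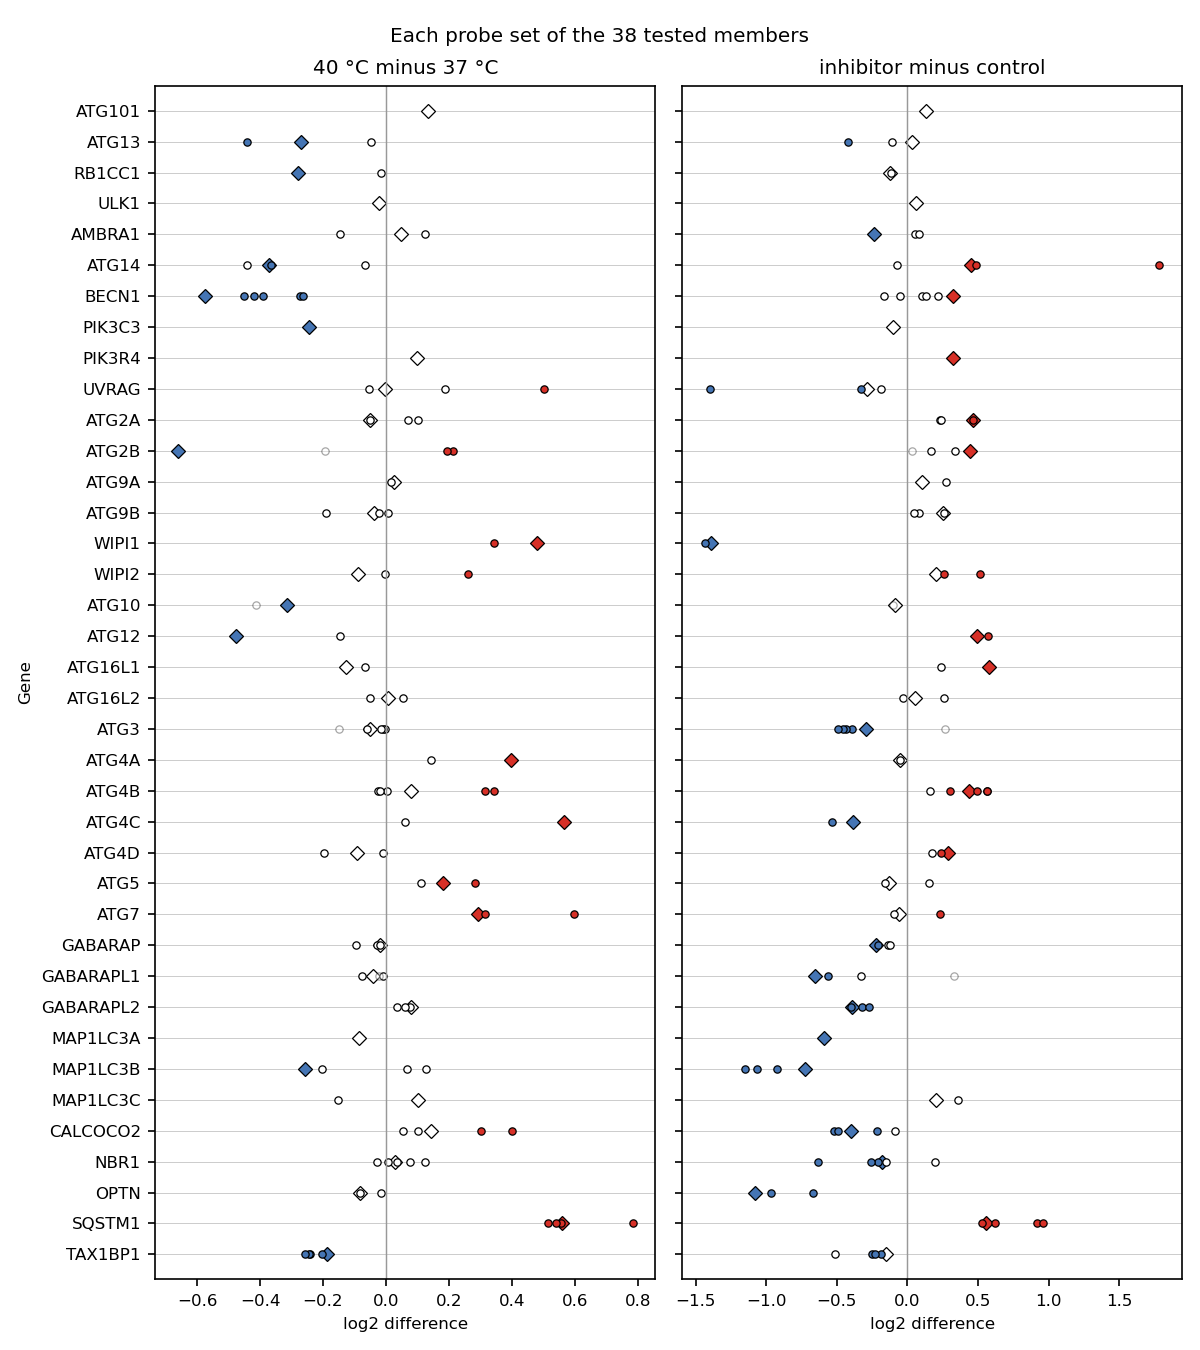
Log2 difference (horizontal axes) of each probe set of the 38 tested members (vertical axis) at 40 °C (left) and with the inhibitor (right). Diamonds are the brightest probe set of a gene, circles the others, red is called higher, blue lower, white not called and faint symbols not tested, and the ATG2B row on the left has its diamond at −0.66 and red circles at 0.19 and 0.21. Calls are those of a fit of all probe sets, in which ATG101 at 40 °C and TAX1BP1 with the inhibitor were not called on their brightest one.

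Genes around the core machinery were taken from a list of 80 that regulate it, extend the membrane, fuse autophagosomes with lysosomes or serve as receptors for organelles. Of these 79 had a probe set and 75 were tested. At 40 °C 22 rose and 16 fell, and with the inhibitor 21 rose and 24 fell, or 29.3% and 21.3% of the tested at 40 °C and 28% and 32% with the inhibitor. Of all genes 21.6% and 17.7%, and 25.6% and 19.6%, were called. The medians of the list were 0.077 and 0.047, beside 0.013 and 0.090 for all genes. TFEB, a master transcription factor of autophagy and lysosome genes, differed by 0.13 (SE 0.068) at 40 °C, not called, and fell by 0.43 (SE 0.063, adjusted p = 0.00127) with the inhibitor. MITF, its relative, rose in both (0.45 and 0.55). Differences given for single genes of this list are those of the brightest probe set. Many of these genes have more than 1 probe set, STX17 having 8, and those were not compared gene by gene.

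Nutrient sensing gave the widest differences in that list. RRAGD, a Rag GTPase that recruits mTORC1 to lysosomes, and FLCN, a GTPase activator for RRAGC and RRAGD, rose at 40 °C by 0.68 (SE 0.048, adjusted p = 3.72e-05) and 0.63 (SE 0.045, adjusted p = 3.84e-05). Both fell with the inhibitor, where their log2 differences were −0.89 (SE 0.058, adjusted p = 3.82e-05) and −1.40 (SE 0.065, adjusted p = 1.2e-05). SESN2, which restrains mTORC1 when leucine is scarce, likewise rose at 40 °C (0.58) and fell with the inhibitor (−1.60). FNIP2, a partner of FLCN, rose in both (0.48 and 0.59). DEPTOR, an mTOR inhibitor, had the largest fall of the list at 40 °C (−0.85), and MTOR itself the largest rise with the inhibitor (0.77).

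Fusion and membrane genes were mixed. STX17, the autophagosomal SNARE, fell at 40 °C by 0.59 (SE 0.047, adjusted p = 6.29e-05) and differed by −0.027 (SE 0.089) with the inhibitor. VAMP7, a lysosomal SNARE, fell by 0.36 and VPS13C, a lipid-transfer protein, by 0.50 at 40 °C. EPG5, a tether for fusion with lysosomes, rose by 0.46 at 40 °C and fell with the inhibitor (−0.42), and the sestrin SESN1 fell by 0.32 at 40 °C. With the inhibitor the endoplasmic reticulum receptor TEX264 rose by 0.67 and PLEKHM1, an adaptor for fusion, by 0.62. Another endoplasmic reticulum receptor, RETREG1, fell by 1.09 (SE 0.13, adjusted p = 0.000531), and SH3GLB1, a membrane-bending partner of UVRAG and BECN1, by 0.90.

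Levels across all 4 groups are described without a test, because the experiments differ in nucleofection and sorting. SQSTM1 had the widest span of group means, 2.21 on the log2 scale, in the order 37 °C (11.02 ± 0.015, SD, n = 3 here and below), 40 °C (11.58 ± 0.045), control (12.68 ± 0.055) and inhibitor (13.24 ± 0.0058). WIPI1 spanned 1.71, with its lowest mean at 37 °C (6.87 ± 0.075) and its highest on control arrays (8.58 ± 0.10), and the inhibitor mean (7.19 ± 0.15) lay near that at 40 °C (7.35 ± 0.032), with overlapping values. On its brightest probe set MAP1LC3C spanned 1.60, from 5.16 ± 0.069 on control arrays to 6.76 ± 0.061 at 40 °C. All arrays of the inhibitor experiment lay below all of the temperature experiment on that probe set. Its other probe set did not show this. Group means there were 5.36 at 37 °C, 5.21 at 40 °C, 5.17 on control and 5.53 on inhibitor arrays. BECN1 spanned 1.53, from 9.66 ± 0.064 on control arrays to 11.18 ± 0.025 at 37 °C, with no overlap between any of its 4 groups. OPTN spanned 1.41, and its control mean of 8.85 ± 0.038 stood above the other three, which lay between 7.44 ± 0.049 at 40 °C and 7.77 ± 0.060 on inhibitor arrays. The smallest span of a tested member was that of ATG9A, 0.11.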

How the data were processed

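The authors deposited log2 expression values of 49395 PrimeView probe sets on 12 arrays of biotin-labelled total RNA, per the labels' protocols. The log2 unit was read from the values, and how the arrays were normalized and summarised, with what software and on which build, is not given in the labels or file headers. Of the probe sets, 44994 have 1 symbol in the platform's gene table. Each gene was represented by its brightest one, and genes with a mean of at least log2 4.48, the 30th percentile over probe sets other than controls, were tested, 13909 in all. Tests used limma (version 3.58.1, R 4.3.3) with two-sided moderated statistics, no block, Benjamini-Hochberg adjustment over all genes and a threshold of 0.05. Each experiment was fitted alone, with 4 residual degrees of freedom, and the difference between the comparisons over all 12 arrays. With 3 arrays against 3 the smallest exact permutation p is 0.1, so no such test was run.

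The members, gene lists and tests were chosen with earlier results of these data known. Arrays were grouped by their titles. Array values are given for called members, up to 10 in each direction of a comparison, and for SQSTM1, MAP1LC3B, GABARAPL1, ULK1, BECN1, ATG5, ATG16L1 and OPTN. From the surrounding list, up to 5 genes in each direction and TFEB are named. Motifs were searched in 300-base RefSeq windows (GRCh38.p14), the files naming no build. In data simulated from the 13909 genes, 50 genes were changed at each size of 0.25, 0.5, 1 and 2 on the log2 scale. Changes of 0.5 were recovered for 70% of 50 genes in the temperature comparison and 60% in the inhibitor comparison, and changes of 0.25 for 30% and 8%. Far fewer genes were changed there than the 39.3% and 45.2% called in the data. The adjusted threshold was thus stricter in the simulation, and these shares are not the power of the reported tests. Figures were drawn with Python 3.11.15 and matplotlib 3.10.9.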

Additional observations from a re-analysis of the deposited data

How the results depend on the processing

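Alternatives were a fit of all 12 arrays, a replicate block, no filter, a 50th percentile filter, other choices of probe set, quantile normalization, median centring, trend and robust eBayes, array weights and leaving out each array. Under these the counts of members called stayed within 1.5 times those reported, with 1 exception. When each gene took the probe set with the largest interquartile range, 5 members in place of 10 fell at 40 °C. With that choice ATG12, ATG14, ATG2B, MAP1LC3B and RB1CC1 lost their calls as lower. ATG101 and ATG4A lost their calls as higher. That choice turned ATG2B (0.21, called), MAP1LC3B (0.067) and WIPI2 (0.26, called) at 40 °C, and ATG13 (−0.42) and ATG7 (0.23) with the inhibitor. Leaving out 1 array gave 5 to 8 members higher and 8 to 10 lower at 40 °C, 10 to 12 and 10 to 13 with the inhibitor, and 21 to 27 for the difference between the comparisons. For the surrounding list it gave 15 to 21 higher and 10 to 13 lower at 40 °C, 10 without replicate 1 or 3 at 37 °C or replicate 3 at 40 °C, and 17 to 23 and 18 to 25 with the inhibitor. The poly-A spike covariate, added after seeing the data, gave 3 members higher and 3 lower at 40 °C, 0 and 1 with the inhibitor, and 9 for the difference, with 7 and 6 and then 0 and 2 of the surrounding list, and ATG4C turned to 0.014 with the inhibitor. Same-numbered arrays had deviations from their group means correlated at −0.13, −0.10 and 0.23 in the temperature experiment and −0.19, −0.60 and −0.15 in the other, and 2 of 6 and 0 of 6 arrays correlated best with their own number. With 3 arrays per group these values cannot show whether the replicate numbers pair the arrays. With the replicate block 6 members rose and 10 fell at 40 °C, 10 rose and 9 fell with the inhibitor, and 21 passed for the difference. The number of arrays, and signal near the level required for testing, limit what small differences can be called.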

Other observations

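Some fainter probe sets of members gave values far from those of the brightest one. A faint ATG14 probe set, with a mean of 4.88 on the log2 scale, differed by 1.78 with the inhibitor and was called higher, where the brightest differed by 0.45. A faint UVRAG probe set, with a mean of 5.77, differed by −1.40 with the inhibitor and was called lower, where the brightest differed by −0.28 and was not called. A further UVRAG probe set differed by 0.50 at 40 °C and was called higher, beside −0.0033 on the brightest. An NBR1 probe set differed by −0.63 with the inhibitor, beside −0.18. These probe sets were singled out after their values were seen.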
